A study of Arabidopsis thaliana with 4 samples.

Results

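The transfer RNA (tRNA) genes of the Arabidopsis thaliana nucleus were examined for peaks of phytochrome A (phyA), the photoreceptor for far-red light, in chromatin immunoprecipitation sequencing (ChIP-seq) data. The members were all genes typed as tRNA on the 5 nuclear chromosomes of the reference gene table, which gave 625 of 37899 nuclear genes. The choice used no peak value, and 47 tRNA genes of the plastid and mitochondrial genomes were not used. These were left out by chromosome only, so copies of organellar tRNA genes on nuclear chromosomes, if present, were counted as nuclear. Whether the tRNA genes lying from AT2G07743 to AT2G07766 on chromosome 2 are such copies was not tested. None of them had a peak in any list, and they are part of every count below that covers them. Genes separated by at most 2000 bp were called tandem and joined to 1 locus. By that rule 462 genes were isolated and 163 were tandem, in 485 loci of which 23 held more than 1 gene.

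The 3 ChIP samples came from etiolated seedlings aged 4 days that had received 3 h of far-red light. All carried phyA-GFP, expressed from the PHYA promoter, in the background of the mutant phyA201, and an anti-GFP antibody pulled down the fusion after cross-linking with formaldehyde. The same genotype gave 1 input sample, for which no peak list was used here. No list from plants without the fusion was analysed here either, so signal carried by phyA-GFP and signal that any precipitated chromatin would give cannot be told apart. The 3 lists held 6037 to 7534 peaks with 4951883 to 11110782 reads inside them, and covered 6.65 to 10.4% of the nuclear chromosomes. Library totals are unknown, so the depth behind a gene without a peak is unknown too.

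RNA polymerase III transcribes tRNA genes. Its assembly starts inside the gene, where the factor TFIIIC binds the A and B boxes and recruits TFIIIB just upstream. In plants most tRNA genes stand alone between protein-coding genes, and a few form arrays of repeated copies. PhyA is imported into the nucleus in far-red light and is known from studies of genes read by RNA polymerase II. It is thought to reach chromatin through transcription factors.

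Peaks lay on a large minority of tRNA genes. A peak overlapped 205 of the 625 tRNA genes (32.8%) in replicate 1, against 24% of all nuclear genes. In replicate 2 the count was 224 (35.8%) against 23.6%, and in replicate 3 it was 151 (24.2%) against 18%. The tRNA share was above the share of all nuclear genes in every list, although tRNA genes have a median length of 73 bp and protein-coding genes one of 2078 bp.

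A peak of all 3 lists overlapped 115 tRNA genes (18.4%), against 11.4% of all nuclear genes. Another 79 tRNA genes had a peak in 2 lists and 77 in 1 list, while 354 had none. At least 1 list thus marked 271 tRNA genes (43.4%), against 33.4% of all nuclear genes. Of these 271 genes, 42.4% were in all 3 lists. The same share was 34.4% for protein-coding genes with a peak in any list. It was 36.4% for genes typed misc_RNA, 36.1% for lncRNA genes, 23.5% for snRNA genes and 14.1% for snoRNA genes.

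The lists named overlapping sets of tRNA genes. The same pairwise counts for all nuclear genes are not given here, so this overlap cannot be read as particular to tRNA genes. Replicates 1 and 2 shared 172 genes, which is 83.9% of those of replicate 1 and 76.8% of those of replicate 2. Replicates 1 and 3 shared 130 genes (63.4% and 86.1%), and replicates 2 and 3 shared 122 (54.5% and 80.8%). Replicate 3, whose list was the shortest, had 14 genes that no other list marked, replicate 1 had 18 and replicate 2 had 45. The peaks usually spanned the gene, since only 1 gene, in replicate 2, was overlapped in part. Of the genes without a peak, 2, 1 and 0 lay within 100 bp of one in replicates 1, 2 and 3.

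Because long genes meet a peak more easily than short ones, gene midpoints were compared next. The midpoint lay in a peak for 32.8, 35.7 and 24.2% of tRNA genes in replicates 1, 2 and 3 (mean 30.9% ± 6.0, SD, n = 3). For protein-coding genes the shares were 7.38, 5.71 and 4.39% (mean 5.83% ± 1.5), and for all nuclear genes 8.25, 6.99 and 5.31%. The difference between tRNA and protein-coding genes was 25.1 percentage points ± 5.11 (SD, n = 3 lists) and had the same sign in 3 of 3 lists (exact two-sided sign-flip permutation test, p = 0.25). With 3 lists that test cannot give a smaller p than 0.25, here and below. With any overlap of 1 bp counted in place of the midpoint, the difference was 5.32 ± 2.57 points.

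Other short noncoding genes came nearest to the tRNA genes. Midpoints lay in a peak for 23.2% ± 5.59 of the 82 genes of snRNAs, the RNAs of the spliceosome, and for 21.4% ± 6.77 of the 287 genes of snoRNAs, which guide modification of ribosomal RNA (SD, n = 3 lists). The tRNA share exceeded that of snRNA genes by 7.09 to 8.41 points and that of snoRNA genes by 5.62 to 12.7 points in the 3 lists (exact sign-flip permutation test, p = 0.25 for each). The share was 16.1% ± 2.13 for lncRNA genes and 6.95% ± 0.94 for miRNA genes. A peak of all 3 lists covered the midpoint of 18.4% of tRNA genes, of 9.76% of snRNA genes, of 8.22% of lncRNA genes and of 5.57% of snoRNA genes, and of 2.65% of all nuclear genes.

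**Figure D1:**
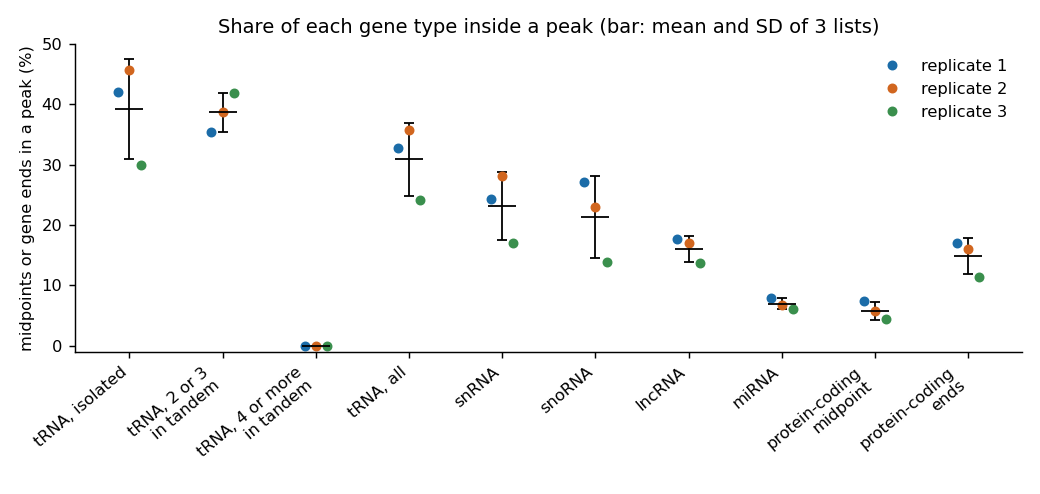
Share of midpoints inside a peak for tRNA genes by arrangement and for other gene types, and share of protein-coding gene ends (first base outside) inside a peak, in percent. Dots are the 3 replicates and bars the mean and SD; all tRNA genes average 30.9%, snRNA genes 23.2%, protein-coding ends 14.8% and arrays of 4 or more tRNA genes 0%.

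Peaks lay at 14.8% ± 2.95 of the ends of protein-coding genes (first base outside, SD, n = 3), and tRNA genes often lie near such ends. The midpoints of 312 of the 462 isolated tRNA genes were within 250 bp of a protein-coding gene, and those of 31 were inside one. The isolated tRNA genes were therefore set against all nuclear bases at the same distance from a protein-coding gene. In replicates 1, 2 and 3 the midpoints of 42.0, 45.7 and 29.9% of isolated tRNA genes were in a peak, against 17.3, 15.2 and 11.5% of bases at the same distances. The difference averaged 24.5 points ± 6.07 (SD, n = 3) and had the same sign in 3 of 3 lists (exact sign-flip permutation test, p = 0.25).

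For isolated genes the mean share was above that of bases at every distance examined. Within 250 bp of a protein-coding gene, 40.1% ± 8.55 of isolated tRNA genes were in a peak, against 16.2% ± 3.16 of bases (SD, n = 3). Farther out, up to 500 bp, the shares were 47.3% ± 8.33 and 15.1% ± 3.16, and from there up to 1000 bp they were 27.2% ± 10.6 and 12.6% ± 2.84. Among the 19 isolated genes more than 1000 and up to 2000 bp away the share was 52.6% in each list, against 9.74% ± 2.24 of bases. Of the 12 isolated genes farther away, 25% were in a peak in each list, against 2.59% ± 0.48 of bases, and inside protein-coding genes the shares were 29.0% ± 14.8 and 8.13% ± 1.89. Over all 100 tRNA genes more than 2000 bp away, tandem ones included, the share was 3% in each list, against 3.14, 2.39 and 2.25% of bases in replicates 1, 2 and 3. With tandem genes included, tRNA genes at that distance were thus below the bases in replicate 1.

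**Figure D2:**
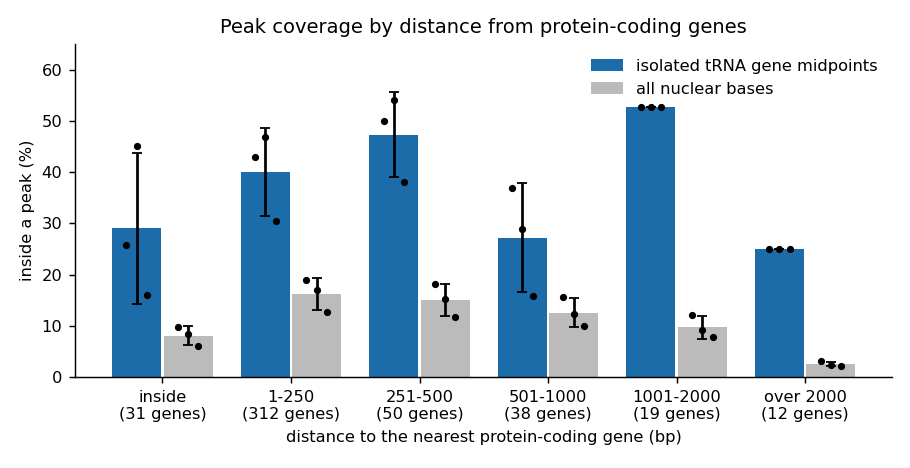
Share of isolated tRNA gene midpoints (blue) and of all nuclear bases (grey) inside a peak, in percent, by distance to the nearest protein-coding gene in bp. Bars are means, error bars the SD and dots the values of the 3 replicates; within 250 bp the means are 40.1 and 16.2%.

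The same difference was seen from the side of the protein-coding genes, though not independently. All peaks had a median length of 1477, 1168 and 1117 bp in replicates 1, 2 and 3. A peak can therefore cover both a tRNA gene and the end beside it. Of the 54888 ends of protein-coding genes, 445 had an isolated tRNA gene within 250 bp outside. The first base beyond these ends lay in a peak for 42.0, 46.3 and 30.1% in replicates 1, 2 and 3. For ends with no tRNA gene there the shares were 16.8, 15.7 and 11.3%, a difference of 24.9 points ± 5.90 (SD, n = 3; exact sign-flip permutation test, p = 0.25). All 3 lists covered 102 of the 445 ends (22.9%) and 6.57% of the 54417 ends without a tRNA gene.

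Mean coverage over the 3 lists was highest at the tRNA gene itself and dropped on both sides. Over the isolated tRNA genes, positions at the gene midpoint were in a peak in 39.2% ± 8.27 of cases (SD, n = 3). In replicate 1 the share was 42.4% at 200 bp to the left and 42.0% at the midpoint. At 500 bp to the left and right the shares were 24.5% ± 5.74 and 25.5% ± 6.60, and at 1000 bp they were 11.6% ± 3.47 and 12.3% ± 3.03. At 2000 bp 9.02% ± 1.74 and 11.0% ± 2.50 remained, near the 6.65 to 10.4% of the chromosomes that the lists cover. Left and right follow the chromosome, because the gene table gives no strand.

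**Figure D3:**
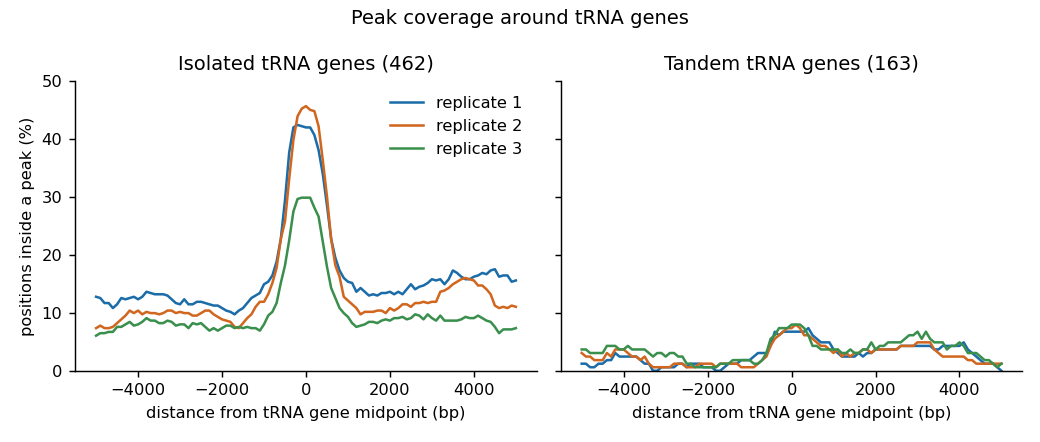
Share of positions inside a peak, in percent, from 5000 bp left to 5000 bp right of the midpoints of isolated (left panel) and tandem (right panel) tRNA genes, 1 line per replicate. At the midpoint 42.0, 45.7 and 29.9% of isolated genes and 6.75, 7.36 and 7.98% of tandem genes are inside a peak.

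Summits, the points of highest signal in a peak, were concentrated at the tRNA genes. Where a peak overlapped a tRNA gene, its summit lay a median of 75, 64 and 71 bp from the gene in replicates 1, 2 and 3 (mean 70.0 bp ± 5.57, SD, n = 3). These peaks reached a median of 708, 602 and 615 bp to each side of their centre, so the summits lay much closer to the gene than the overlap required. The summit was inside the gene for 26, 33 and 21 tRNA genes and within 100 bp for 61.5, 64.7 and 57.6% of those with a peak. Within 500 bp the shares were 86.3, 92.9 and 92.1%.

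The concentration was larger than at other bases equally far from protein-coding genes. A summit lay within 100 bp of the midpoint of 18.4, 22.9 and 13.4% of isolated tRNA genes in the 3 replicates. Of bases at the same distances, 3.56, 3.73 and 2.82% had a summit within 100 bp. The difference was 14.9 points ± 4.31 (SD, n = 3) and had the same sign in 3 of 3 lists (exact sign-flip permutation test, p = 0.25).

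Most summits were closer to the tRNA gene than to the end of any protein-coding gene. That held for 130 of 200 peaks (65%) in replicate 1, 147 of 220 (66.8%) in replicate 2 and 91 of 146 (62.3%) in replicate 3. An end of that kind was a median of 126, 136 and 129 bp from the summit in these peaks, and 19.5, 23.2 and 24.0% of their summits lay inside a protein-coding gene. The distances to the tRNA gene and to the protein-coding gene are often both short, so a peak cannot always be tied to 1 of them.

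**Figure D4:**
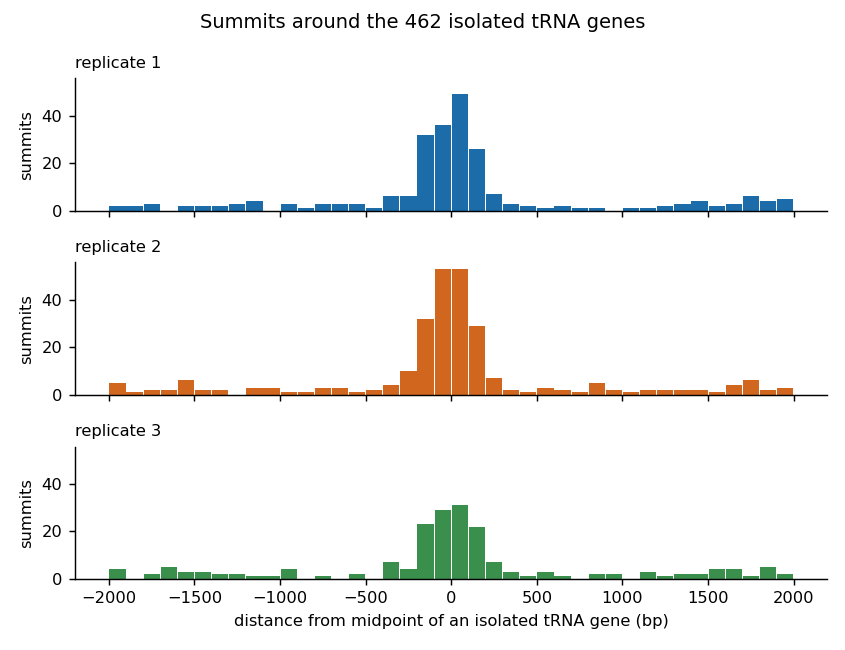
Number of peak summits in bins of 100 bp around the midpoints of the 462 isolated tRNA genes, in the 3 replicates. The bins next to the midpoint hold 36 and 49 summits in replicate 1, 53 and 53 in replicate 2 and 29 and 31 in replicate 3, while bins beyond 500 bp on either side hold at most 6.

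At 49 loci a summit of each of the 3 lists lay within 100 bp of a tRNA gene. Of the 111 loci with a peak in all 3 lists, 50 had every summit closer to a tRNA gene than to an end of a protein-coding gene. The summits of the lists were a median of 106 bp apart at these 111 loci. They lay at most 100 bp apart at 52 loci and over 500 bp apart at 15. At 4 loci the summit was inside the tRNA gene in all 3 lists: AT5G66568 and AT1G07100, both for isoleucine, AT4G39345 for histidine and AT1G11010 for methionine.

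Isolated and tandem genes differed in how often they had a peak. Of the isolated genes, 194 (42.0%), 212 (45.9%) and 138 (29.9%) were overlapped in replicates 1, 2 and 3, and 105 (22.7%) in all 3. Of the tandem genes, 11 (6.75%), 12 (7.36%) and 13 (7.98%) were overlapped, and 10 (6.13%) in all 3. The difference was 31.9 points ± 8.81 (SD, n = 3), with the same sign in 3 of 3 lists (exact sign-flip permutation test, p = 0.25).

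The difference rested on the long arrays. None of the 132 genes in the 8 loci of 4 or more tRNA genes was overlapped by any peak of any list. The other 31 tandem genes, in loci of 2 or 3, had a peak in 35.5, 38.7 and 41.9% of cases. Without the long arrays, isolated genes exceeded tandem genes by 0.54 points ± 10.9 (SD, n = 3; exact sign-flip permutation test, p = 1.0), at 6.51, 7.18 and -12.1 points in replicates 1, 2 and 3. With each locus counted once and the arrays kept, the difference was 7.37 points ± 10.9 (exact sign-flip permutation test, p = 0.5), with replicate 3 at -4.91. Without chromosome 1 it was 15.9 points ± 10.5, with replicate 3 at 3.86.

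Most of these arrays repeat 1 or 2 tRNA kinds. The exception is AT2G07759 to AT2G07765 on chromosome 2, whose 6 genes are for 5 amino acids. The nearest summit to its first gene lay 562737, 570029 and 413445 bp away in replicates 1, 2 and 3. This array lies within the run of tRNA genes from AT2G07743 to AT2G07766, none of which had a peak in any list. Whether its sequence also occurs elsewhere, as in an organellar genome, was not tested. The longest array, from AT1G56730 to AT1G57530 on chromosome 1, holds 27 serine and 54 tyrosine tRNA genes in 39685 bp. The nearest peak to this array lay 276, 17282 and 1986 bp away in replicates 1, 2 and 3. The other 4 named arrays hold proline tRNA genes. They are AT1G28820 to AT1G28920 (11 genes), AT1G28720 to AT1G28810 (9 genes) and AT1G28930 to AT1G28990 (6 genes), neighbours on chromosome 1, and AT2G33890 to AT2G33970 (9 genes) on chromosome 2. AT1G45234 to AT1G45246 (6 proline genes) and AT5G20852 to AT5G20858 (4 cysteine genes) complete the 8.

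Peaks stayed clear of these proline arrays by 537 to 27410 bp over the 3 lists. The 537 bp belong to replicate 3 at the array of 11, from which the nearest peaks of replicates 1 and 2 were 18271 and 18260 bp away. How reads that match several copies were treated is not given in the sources used here, and values in near-identical copies are uncertain. Whether that accounts for the missing peaks was not tested.

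Small tandem loci did have peaks. Of the 15 loci of 2 or 3 genes, 6 had a peak in all 3 lists and 2 in 2 lists. The 2 alanine tRNA genes AT3G63003 and AT3G63006 shared a peak in each list, as did the 2 leucine genes AT4G11213 and AT4G11216, the 2 leucine genes AT2G36510 and AT2G36520, and AT1G17660 and AT1G17670, for aspartate and valine. Peaks overlapped at most 2 tRNA genes at once. At the limit of 2000 bp, the tandem genes with the widest gaps, AT5G55045 and AT5G55055 (1756 bp) and AT1G45234 (1852 bp), had no peak. Of the isolated genes with the narrowest gaps, AT3G03845 and AT3G03852 (2058 bp) had none, AT1G11010 (2083 bp) had one in all 3 lists and its neighbour AT1G11030 had none.

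The loci with the strongest peaks in all 3 lists were ranked by the percentile of fold enrichment, read as a ratio of ChIP signal at the peak over background. Which background the authors used is not given in the sources used here. Mean fold enrichment ran from 3.26 to 6.67 over the 111 loci, with a median of 4.35 and a median SD between lists of 0.79. The lists hold no peak below 2.95-fold. The alanine tRNA gene AT5G39895 on chromosome 5 came first, at 7.88-, 6.70- and 5.44-fold in replicates 1, 2 and 3 (6.67 ± 1.22, SD, n = 3). These peaks were at the 99.3, 99.0 and 97.7 percentile of their lists. Their summits were 67, 78 and 75 bp from the tRNA gene, yet inside the protein-coding gene AT5G39890, 50 to 61 bp from its end.

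The next loci differed in where the summits lay. AT5G08075, also for alanine, had 6.02-, 6.88- and 4.81-fold enrichment with summits 297, 162 and 292 bp away. These summits were inside SYP132, a syntaxin gene, in replicates 1 and 3 and nearer to it than to the tRNA gene in replicate 2. The glycine tRNA gene AT5G45745 had 6.39, 5.09 and 6.19, with the summit inside it in replicate 1 and 56 and 71 bp away in replicates 2 and 3. It lies 144 bp from RABA1c, which encodes a small GTPase of membrane traffic. The arginine tRNA gene AT3G11285 had 7.13, 5.59 and 4.48, and its summits at 233, 59 and 32 bp show that the lists did not place the site alike. The summit of replicate 1 lay inside the protein-coding gene AT3G11280.

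A glutamate tRNA gene carried summits in or close to itself in every list. AT1G75570 had 5.86-, 6.34- and 4.54-fold enrichment (5.58 ± 0.93, SD, n = 3) and summits at 0, 19 and 0 bp, while the nearest protein-coding gene was 215 to 279 bp from them. The leucine tRNA gene AT5G03705 had 5.62, 5.56 and 4.66 with summits at 0, 8 and 19 bp. The alanine genes AT3G63003 and AT3G63006 shared peaks of 5.28, 6.60 and 4.78, with summits 35, 45 and 23 bp from the nearer gene and at least 309 bp from any protein-coding gene. At these 3 loci the tRNA genes lay nearer to every summit than a protein-coding gene did.

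The isoleucine tRNA gene AT5G66568 lies 102 bp from PSBO1, which encodes a subunit of the oxygen-evolving complex of photosystem II. Its peaks had 5.82-, 5.44- and 4.24-fold enrichment (5.17 ± 0.82, SD, n = 3) and 5068, 1338 and 953 reads. The reads are those of whole peaks of unlike length. The peak ran from 26567517 to 26572991 in replicate 1, from 26567899 to 26569212 in replicate 2 and from 26568006 to 26569278 in replicate 3. All 3 summits, at 26568463, 26568441 and 26568425 on chromosome 5 (TAIR10), were inside the tRNA gene and 109 to 147 bp outside PSBO1. The summits of the 3 lists thus fell on the same gene.

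Methionine and histidine tRNA genes filled the rest of the first 12. The methionine gene AT1G69000 had 6.14, 4.59 and 5.01 with summits at 213, 20 and 163 bp. In replicate 1 a protein-coding gene was nearer to the summit, at 181 bp. AT1G22320, also for methionine, had 6.32, 6.07 and 3.95 with summits at 122, 83 and 158 bp, and its nearest protein-coding gene MBD8 was 388 to 463 bp from them. The histidine genes AT5G49435 (6.21, 4.23 and 6.06) and AT5G64735 (6.22, 5.35 and 4.04) had summits 58 to 60 bp and 78 to 105 bp away. At AT5G64735 the end of AT5G64730 was nearer to every summit.

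Among loci where every summit lay within 100 bp, 3 more were named. The glutamine tRNA gene AT3G61825 had 4.94-, 4.83- and 4.95-fold enrichment, the closest agreement of the named loci (4.91 ± 0.07, SD, n = 3), with summits at 0, 0 and 60 bp. The histidine gene AT1G07760, 506 bp from RPS15A, a ribosomal protein gene, had 5.53, 4.86 and 4.04 with summits at 7, 0 and 0 bp. The alanine gene AT4G11355 had 5.72, 5.50 and 3.65 with summits at 10, 29 and 82 bp.

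Of the 111 loci, 97 were within 500 bp of a protein-coding gene. Their median distance from one was 101 bp, against 90 bp for all 485 loci. Of all 485 loci, 68 held a tRNA gene over 500 bp from a protein-coding gene. Nearness to such genes was thus not particular to loci with a peak. Over 1000 bp from any protein-coding gene lay 8 of the 111 loci. The valine gene AT5G56975 had 6.44-, 6.23- and 3.6-fold enrichment in replicates 1, 2 and 3 and summits 165, 120 and 200 bp from it. The methionine gene AT1G78250, 2851 bp from the nearest protein-coding gene, had 3.85, 4.68 and 3.49 with summits at 9, 54 and 38 bp. The glycine gene AT2G42420 had 4.54, 4.29 and 3.07 with summits at 226, 0 and 0 bp. The remaining 5 were AT1G61910, AT5G65305, AT5G19095, AT5G02025 and AT3G52285, whose summits lay 4 to 1658 bp from the gene. These 8 loci were picked for their position after their values were seen.

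All 20 amino acids had at least 1 isolated tRNA gene with a peak in all 3 lists. The share of isolated genes in all 3 lists was 22.7% over all amino acids and ranged from 5.88% for glutamine (1 of 17) to 70.0% for histidine (7 of 10). Isoleucine (8 of 22, 36.4%), methionine (7 of 24, 29.2%), alanine and asparagine (8 of 28 and 4 of 14, 28.6% each) followed histidine. Aspartate (2 of 22, 9.09%) and cysteine (1 of 8, 12.5%) came just above glutamine. The groups are small and no test was made between them.

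Of the 10 histidine tRNA genes, all isolated, 8, 7 and 7 had a peak in replicates 1, 2 and 3. Besides the loci above, AT4G39345 had 6.07-, 3.54- and 4.39-fold enrichment with each summit inside the gene. AT4G02055 (5.38, 3.62 and 3.81) and AT4G14345 (4.99, 4.39 and 3.62) had the summit inside in replicates 1 and 2 and 62 and 22 bp away in replicate 3. AT1G02600 had 7.43, 4.15 and 4.27, with summits at 18, 134 and 1114 bp. AT5G02505 was overlapped in replicate 1 only, by a peak whose summit lay 3128 bp away, and AT2G28770 and AT3G06665 had no peak. Histidine was singled out after the values were seen.

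Tyrosine, serine and proline, the kinds that fill the named arrays, also have isolated genes. All 3 lists had a peak at 4 of 18 isolated tyrosine genes (22.2%), at 8 of 33 isolated serine genes (24.2%) and at 5 of 24 isolated proline genes (20.8%). With tandem genes included the counts were 4 of 75, 9 of 64 and 5 of 66. For methionine, genes of at least 80 bp had a peak in all 3 lists in 5 of 12 cases and shorter ones in 2 of 12. The 2 genes with no amino acid in the table had no peak.

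**Figure D5:**
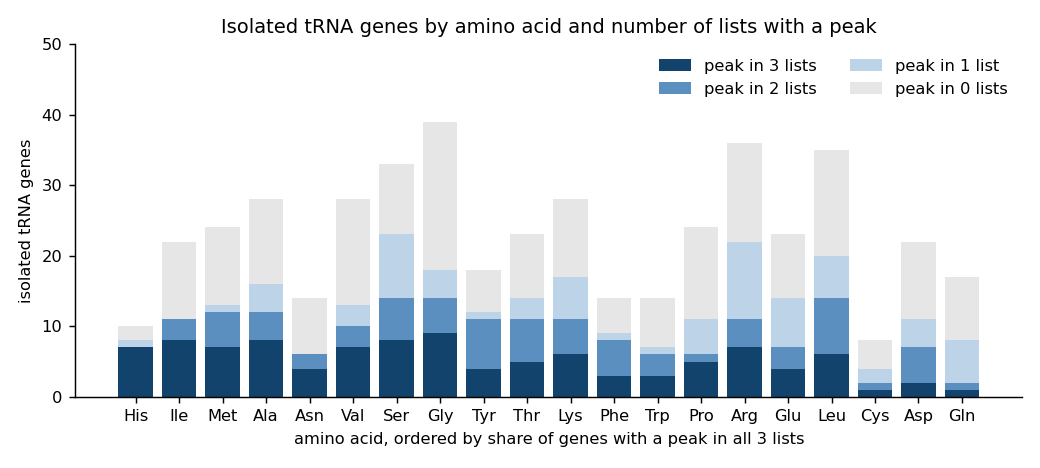
Number of isolated tRNA genes by amino acid, split by the number of ChIP lists with a peak on the gene (darkest: all 3). Histidine has 7 of 10 genes in all 3 lists, glutamine 1 of 17.

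Peaks with a tRNA gene were a small part of each list and had a slightly higher fold enrichment than the rest. They numbered 200 (2.82%), 220 (2.92%) and 146 (2.42%) in replicates 1, 2 and 3. Their median fold enrichment was 4.76, 4.01 and 3.74, against 4.36, 3.85 and 3.58 for all other peaks. The difference was 0.24 ± 0.14 (SD, n = 3) with the same sign in 3 of 3 lists (exact sign-flip permutation test, p = 0.25). It was 0.04 ± 0.08, and -0.02 in replicate 3, among the stronger peaks of each list, those at or above its median.

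Median length was 1422, 1204 and 1244 bp with a tRNA gene and 1478, 1167 and 1113 bp without, which differed by 37.3 bp ± 93.5 (exact sign-flip permutation test, p = 0.75). Median reads per kb of peak were 930, 745 and 618 with a tRNA gene and 863, 709 and 599 without. The highest fold enrichment on a tRNA gene was 7.88, 6.88 and 6.19 in the 3 lists. Of the 3323 merged regions with peaks of all 3 lists, 123 (3.70%) overlapped a tRNA gene.

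The 5 chromosomes gave shares of isolated genes in all 3 lists of 25.2, 17.9, 24.4, 18.7 and 24.3% from chromosome 1 to chromosome 5. With tandem genes included, chromosome 1 fell lowest, at 32 of 238 genes (13.4%), and it holds the longest array. Chromosomes 2 to 5 had 15 of 95, 24 of 92, 16 of 77 and 28 of 123 genes in all 3 lists. The counts of chromosome 2 include the run of tRNA genes from AT2G07743 to AT2G07766, all without a peak. Shares of all nuclear genes by chromosome are not given here, and no test was made between chromosomes.

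Protein-coding genes that make, process or charge tRNAs had peaks at a share near that of all such genes. Of 27 genes listed, 24 were found in the gene table with the listed symbol or as a known synonym. A merged region of all 3 lists lay within 1000 bp of 5 of the 24 (20.8%), against 20.3% of all protein-coding genes. Of the transcription genes, 1 of 5 had one, namely TFIIIA, whose product acts in transcription of the 5S ribosomal RNA genes (5.07 ± 0.70-fold, SD, n = 3). The polymerase III subunit genes NRPC1 and NRPC2 had none.

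None of the 8 processing and export genes had such a region, among them PRORP1, PRORP2 and PRORP3 of the protein-only RNase P, which trims the tRNA leader, and PSD, the tRNA exporter gene. Aminoacyl-tRNA synthetase and tRNA ligase genes were taken only where the name in the gene table holds 'tRNA synthetase' or 'tRNA ligase'. Genes of these kinds named otherwise were not counted. Of the 11 genes found in this way, 4 had such a region. These were ATKRS-1 for lysine (5.07 ± 0.54-fold, SD, n = 3), ERS for glutamate (4.20 ± 0.87), OVA6 for proline (3.72 ± 0.51) and HRS1 for histidine (3.62 ± 0.48). Whether these enzymes charge tRNAs of nuclear or of organellar genes was not examined, so they are not tied to the tRNA genes above.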

How the data were processed

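The 3 ChIP peak lists were joined to the NCBI gene table (assembly TAIR10.1). Bowtie and the build TAIR10 are named in the submitters' processing notes. The peak caller and any use of the input in calling are not given in the sources used. Each list is separate, with no column names, and columns were read from the values and the order of a MACS 1.4 table. The authors deposited whole read counts per peak, a score (read as a p-value on a scaled -log10 axis, and not used), a fold enrichment ratio and a false discovery rate in percent. The lowest fold enrichment was 2.95 in each list, and the highest false discovery rate was 4.99, 4.98 and 4.99% in replicates 1, 2 and 3. A gene without a peak may thus hold signal that did not reach the lists. Starts were taken as 1-based, because end minus start plus 1 gave the deposited length in every line.

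A gene had a peak where they overlapped by at least 1 bp, and the peak of highest fold enrichment counted where several did. The summit was the start plus the deposited offset. The gene table gives no strand. TAIR10.1 was taken to keep the nuclear coordinates of TAIR10, and no genome sequence was used. Merged regions joined peaks of any list that overlapped. Bases at the same distance are all nuclear bases, weighted by the share of tRNA midpoints in 6 classes of distance to a protein-coding gene (inside, and up to 250, 500, 1000, 2000 and more bp).

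Differences were tested over the 3 lists by an exact sign-flip permutation test, two-sided. The labels call the samples biologically distinct. Genes were not treated as replicates, and neighbouring genes share peaks. Calculations used Python 3.11.15, pandas 2.3.3 and NumPy 2.4.6, and were tested on simulated peaks. Members, lists and tests were chosen with earlier results of these data known. Named loci were the 12 with a peak in all 3 lists and the highest mean percentile of fold enrichment, the first 10 in that order with a summit of every list within 100 bp, and the 5 with most genes, where 3 loci of 6 genes tied for the last place and the first of them by chromosome position was taken.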

Additional observations from a re-analysis of the deposited data

How the results depend on the processing

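The difference between tRNA and protein-coding genes kept its sign under every alternative run. It ranged from 5.32 points (any overlap) to 33.0 points (each locus once). The isolated minus tandem difference of 31.9 points was 18.7 with the stronger peaks of each list, 13.8 with a false discovery rate of at most 1% and 15.9 without chromosome 1. It was 0.54 without loci of 4 or more genes and 7.37 with each locus once, with replicate 3 below 0 in both. The fold difference of 0.24 was 0.04 with the stronger peaks, where replicate 3 was also below 0. Leaving out 1 replicate gave 22.6 to 27.7 points for tRNA against protein-coding genes, 28.6 to 36.9 points for isolated against tandem genes, and 122 to 172 tRNA genes in all remaining lists.

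Stricter peaks lowered the count of 115 genes in all 3 lists. It was 45 with the stronger peaks of each list (at or above its median) and 31 with a false discovery rate of at most 1%. The shares of all nuclear genes under these limits are not given here. With tRNA genes within 500 bp of a protein-coding gene left out, the count was 14 of 170 genes (8.24%), below the 11.4% of all nuclear genes. A peak overlapped 14.1, 13.5 and 10.6% of the 170 genes in replicates 1, 2 and 3, against 24, 23.6 and 18% of all nuclear genes. By midpoint the 170 genes still exceeded protein-coding genes by 6.92 points ± 0.83 (SD, n = 3). The median summit distance of 70.0 bp became 100 bp with the false discovery rate limit, at 141 bp in replicate 1, and 140.3 bp without genes near protein-coding genes, and the cause was not tested. The false discovery rate limit kept 1173, 3621 and 2906 peaks of the 3 lists. The pathway count of 5 genes became 2 and 0 with the stronger peaks and with the rate limit.

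The alternatives without long arrays, with each locus once for the isolated and tandem comparison, and those for the distance-matched bases and the pathway genes were chosen after seeing the data. ChIP and input could not be compared in pairs, because the ChIP samples form 1 group and no peak list of the 1 input was used. The tests made here compare gene sets within each list. Library depth is unknown, so a missing peak does not show missing binding.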
